A study of Mus musculus with 577 samples.

Results

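9 mouse genes, Filip1l, Il1rapl1, Magi2, Pde7b, Ntng1, Arhgap6, Adamts6, Kpna1 and Ubtf, were followed through every library in which reads were counted per gene. They are 9 of the 22060 protein-coding genes counted in all 8 tables, and they were picked because their counts were higher in laser-captured than in dissociated cells of 1 mouse. The differences within that mouse are therefore a description and carry no test. 7 of the genes span 209 to 1478 kb, but Kpna1 spans 58.4 kb and Ubtf 15.2 kb, so that "long" describes 7 of them. Ubtf entered by the oocytes and was not higher in the captured granulosa cells (-0.93 on the log2 scale), and the description below follows each gene rather than the set.

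The samples were 577 libraries of mouse cells without a stated genetic change, and the sources used here give no strain and no name of the mESC line. Mouse embryonic stem cells (mESCs) in 2i-LIF medium, which holds GSK3 and MEK inhibitors with LIF, were taken fresh or by laser capture microdissection (LCM) from sections of a frozen block of the same culture. Oocytes and granulosa cells came from ovaries of adult female mice, cut frozen and fixed with alcohol or, in 36 libraries, after 24 h in formalin. LCM-seq, SMART-Seq v4 and Smart-seq2 amplify cDNA with template switching, SC3-seq adds a tail to the cDNA and reads its 3′ end, and DRaqL is a detergent lysis with quenching that precedes any of them. In the same-mouse experiment, one ovary of a proestrus female was frozen for LCM with DRaqL-Smart-seq2, and the other gave cumulus-oocyte complexes of fully grown follicles, pipetted apart in medium with dibutyryl-cAMP and amplified by Smart-seq2. The captured oocytes of that mouse came from secondary to early antral follicles, and capture, lysis, follicle stage, medium and library pool cannot be told apart between its 2 ovaries. Granulosa cells were labelled neighboring or non-neighboring by whether they touched the oocyte, and for captured granulosa cells the laser followed the nucleus.

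Long genes consist mostly of introns, which are removed in the nucleus, and their primary transcripts take long to make. Oligo-dT priming starts at a poly(A) tail but also at runs of A inside a transcript, introns included. Granulosa cells surround the oocyte and feed it through gap junctions, and growing oocytes store large amounts of mRNA in their cytoplasm.

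Il1rapl1 (chrX:86740870-88115645, minus strand, GRCm38) encodes an interleukin-1 receptor accessory-like protein of synapses, and Ntng1 (chr3:109780040-110144011, minus) encodes netrin-G1, a membrane-anchored guidance protein. Magi2 (chr5:19227036-20704792, plus) encodes a scaffold protein of cell junctions, and Filip1l (chr16:57353093-57573126, plus) a filamin-binding protein. Pde7b (chr10:20398004-20725078, minus) encodes a phosphodiesterase that degrades cAMP, and Arhgap6 lies at chrX:168795099-169304435 on the plus strand. Adamts6 (chr13:104287835-104496695, plus) encodes a secreted metalloprotease. Kpna1 (chr16:35978750-36037131, plus) encodes an importin alpha that carries proteins into the nucleus, and Ubtf (chr11:102304560-102319742, minus) the upstream binding factor of RNA polymerase I on ribosomal DNA. Exons of the longest coding transcript took 0.445% of the span of Magi2, 0.664% of Il1rapl1, 1.08% to 3.10% of the other 5 long genes, 8.63% of Kpna1 and 30.9% of Ubtf.

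Because the libraries read the 3′ ends, the last 30 bases of each gene's longest coding transcript are shown 5′ to 3′ as GENCODE vM21 gives them on GRCm38. The poly(A) signal AATAAA or ATTAAA nearest the end is in capitals. Il1rapl1 also holds an AATAAA that overlaps the start of its marked ATTAAA.
Filip1l: ataatATTAAAatgtttctattaatgagca
Il1rapl1: acaataaATTAAAcaatgtgttgttggaac
Magi2: acactgtcaAATAAAatatatatccaaaaa
Pde7b: ttcatctaccaaacatctaatagttaaaac
Ntng1: cttttAATAAAaattcacttttaggtatat
Arhgap6: tcttgtgccacaatgAATAAAatgttaagc
Adamts6: ttcattctcctgctcgtaatgaaaatgaaa
Kpna1: ctgtctgaccccaaacgtggggctgtattg
Ubtf: tgtatAATAAAgtgaaaaaccaaggtttga
6 of the 9 transcripts held one of the signals in this window, and 63.6% of 21290 protein-coding genes did, on the strand of the transcript. Pde7b, Adamts6 and Kpna1 held neither, which says only that these letters are not in this window. The longest run of A in the same transcripts was 16 bases in Il1rapl1, a length that 3.15% of genes reached, and 14 bases in Ubtf, which 5.16% reached. The other 7 runs were 5 to 11 bases long, against a median of 6 over all genes. Introns were not searched.

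Levels are reads on a gene after scaling each library to 1000000 reads on protein-coding genes (RPM), and differences are between means of log2 (RPM+1), which understates changes of genes near 0. Since no label ties a single-cell library to an animal, a set of cells counted as 1 sample, SDs give the spread over cells, and no test was run between sets. A gene was counted as higher or lower at a difference of at least 1. Libraries of dissociated granulosa cells of the same mouse held 12748 to 353959 reads, those of captured ones 21733 to 3745815, those of the oocytes of that mouse 204271 to 1083011, and those of mESCs 204699 to 3440997. Dissociated granulosa cells thus had the lowest totals, and at their median depth 3 reads correspond to 26.9 RPM. RPM compares a gene between libraries, not genes with each other.

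In granulosa cells of the same mouse, 8 of the 9 genes were at least 1 higher in the 70 captured than in the 35 dissociated cells, where 22.6% of 10487 genes were. The members were chosen by this difference, so that nothing is read from the count. None of the 9 was at least 1 lower, where 27.6% of genes were.

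Filip1l had reads in 10 of 35 dissociated cells, with a median of 0 RPM and a highest value of 466, and in 70 of 70 captured cells, with a lowest value of 130.1, a median of 632 and a highest of 3014. Its mean level was 1.28 ± 2.26 (SD, n = 35) in dissociated and 9.25 ± 0.85 (n = 70) in captured cells, a difference of 7.97 that ranked 1 of 10487 genes. Only part of the cells overlapped, since 25 dissociated cells lacked reads. Summed over cells, Filip1l took 19.8 RPM (95% Poisson interval 15.8 to 24.4) against 684 RPM (675 to 693), and these intervals cover counting error only.

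Il1rapl1 had reads in 11 of 35 dissociated cells, with a median of 0 and a highest value of 69.7 RPM, and in all 70 captured cells, from 13.8 to 2196 RPM with a median of 286. Its difference was 6.96 and ranked 2. Magi2 took 32.6 RPM of the summed reads of dissociated and 2313 RPM of those of captured cells, and captured cells ranged from 0 to 8612 RPM around a median of 967. Its captured cells spread more widely, with an SD of 2.81, than those of Filip1l.

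Pde7b had a median of 0 RPM in dissociated cells (15 of 35 with reads, highest 592) and of 315 in captured cells (67 of 70, highest 7138), a difference of 5.71. Arhgap6 had a median of 0 RPM in dissociated cells (10 of 35 with reads, highest 501) and of 226 in captured cells (64 of 70, highest 4080), a difference of 5.26. Adamts6 likewise moved from a median of 0 RPM (11 of 35, highest 226) to 247 (65 of 70, highest 2710), a difference of 5.27. These 3 had SDs of 3.05 to 3.42 over captured cells, and a few captured cells had none of their reads.

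Ntng1 was the most variable in detection, with reads in 9 of 35 dissociated and 50 of 70 captured cells and medians of 0 and 40.6 RPM. Its difference of 3.09 was smaller than its SD of 3.66 over captured cells, and it ranked 273. 1 dissociated cell reached 1006 RPM of Ntng1, within the captured range of 0 to 2012.

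Kpna1 was detected in 25 of 35 dissociated cells, with a median of 21.3 RPM and a highest value of 676. All 70 captured cells had Kpna1 reads, from 58.2 to 42148 RPM with a median of 470, and the difference was 5.28. Ubtf had reads in 30 of 35 dissociated cells (median 75.7 RPM, highest 235) and 56 of 70 captured cells (median 37.4, highest 355). Its difference of -0.93 was within its SDs of 2.52 and 2.86, and its summed levels were 91.3 and 82.4 RPM. Scaling by trimmed mean (TMM) in place of totals moved the median of all genes by 0.32, and no member changed sides or sign.

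**Figure D1:**
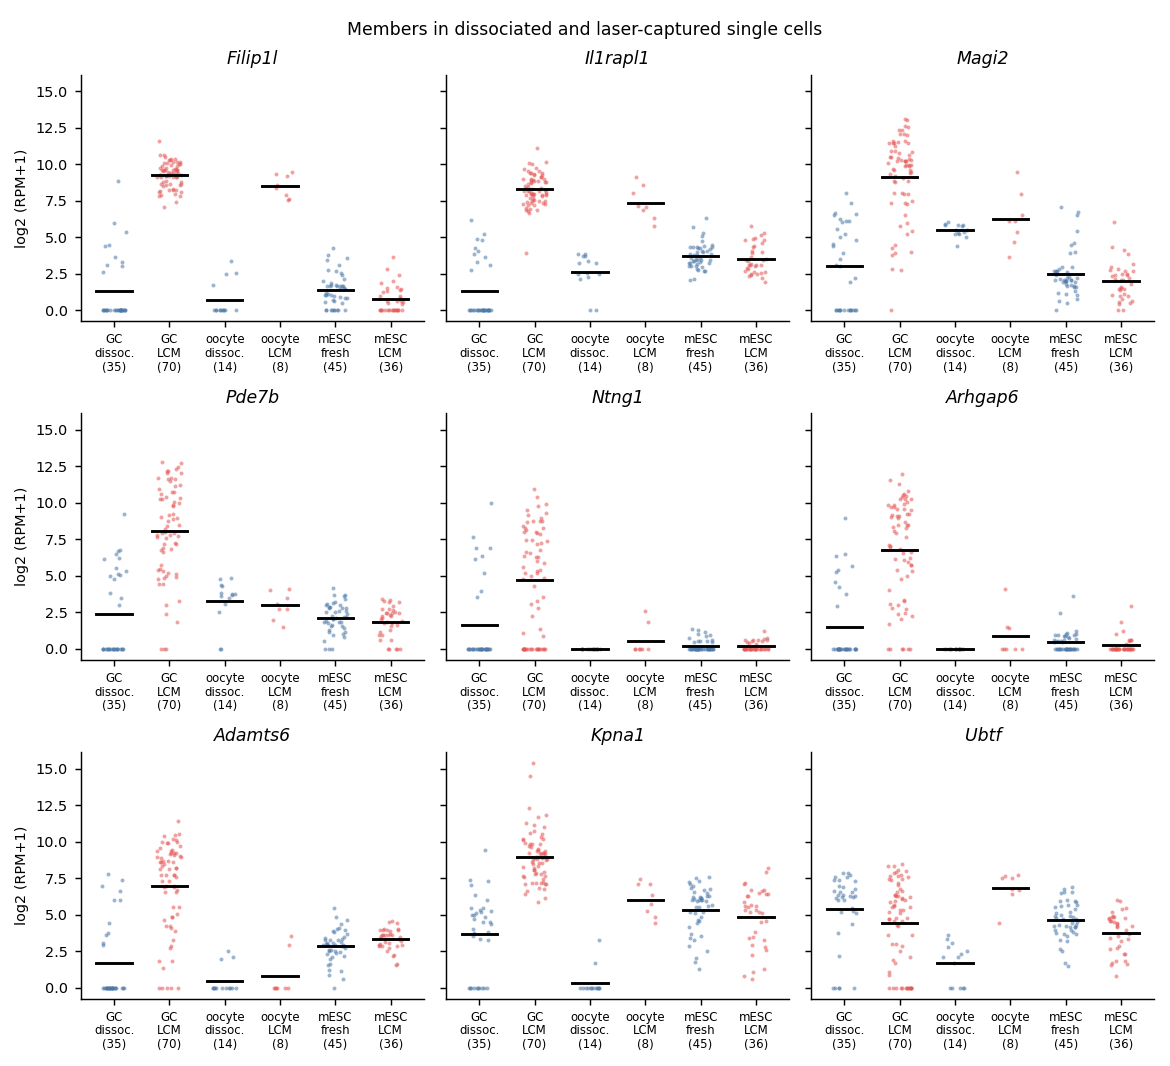
Level of each of the 9 genes, log2 (RPM+1) on the vertical axis, in single dissociated and captured granulosa cells and oocytes of the same mouse and in dissociated and captured mESCs. Each point is 1 cell and the black line is the mean of the set, and Filip1l sits at 1.28 in dissociated and 9.25 in captured granulosa cells.

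The genes next to them in rank were themselves long. Jarid2 (192 kb) ranked 4 with 6.05, Sox5 (954 kb) ranked 6 with 5.66, Atxn1 (415 kb) ranked 7 with 5.54 and Rad51b (517 kb) ranked 8 with 5.50. Maml3 (419 kb) with 5.26 stood between Adamts6 and Arhgap6 and was not a member.

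The difference was present at both positions. In neighboring cells (35 captured, 14 dissociated), Filip1l differed by 7.91, Il1rapl1 by 6.92 and Pde7b by 6.40, and in non-neighboring cells (35 and 21) by 8.01, 7.01 and 5.60. 8 of 9 genes were at least 1 higher in each, where 33.3% of 10260 and 20.2% of 10736 genes were. Ubtf was -0.36 in neighboring and -1.17 in non-neighboring cells, where 36.3% of genes were at least 1 lower.

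Captured and dissociated cells were sequenced in separate library pools, 7 of each for granulosa cells. The mean of Filip1l in the 7 pools of captured cells ran from 8.58 to 10.03 and in the 7 pools of dissociated cells from 0 to 2.96. The pools of the 2 kinds also did not overlap for Il1rapl1, Magi2, Arhgap6, Adamts6 and Kpna1, and they overlapped for Pde7b, Ntng1 and Ubtf. Some pools of dissociated cells held only 2 or 3 cells. The share of all genes without overlap was not counted, and this contrast chose the members, so that nothing is read from it.

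Other RNA moved beside these genes, and its part in the result was not tested. The 13 mitochondrial mRNAs took a median of 4.13% of the reads of dissociated and 1.32% of captured granulosa cells, and 8 of the 13 were at least 1 lower. The 14 oocyte markers summed to a median of 155 RPM (0 to 19611) in dissociated and 228 RPM (0 to 28588) in captured cells. 3 of 35 dissociated and 4 of 70 captured cells exceeded 3210 RPM, a limit set at 10% of the median oocyte. The 10 granulosa markers summed to a median of 15854 RPM in dissociated and 4059 RPM in captured cells, with none of the 10 at 0 in either set. Theca and interstitial markers had a median sum of 431 RPM (0 to 14076) in dissociated and 0 (0 to 22903) in captured cells, and pluripotency, blood and endothelium markers had medians of 0 in both.

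Across the captured granulosa cells, the genes varied largely one by one. Of 36 pairs of members, Spearman's rank correlation over the 70 cells had a median of 0.08 and ran from -0.33 to 0.52. The highest was that of Filip1l with Il1rapl1, and Pde7b with Ntng1 had 0.32. The mean of the members had a rank correlation of 0.05 with the total reads of the cell in captured cells and of 0.42 in dissociated ones, so that deeper dissociated cells showed more of them. These cells share 1 mouse and are a description.

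The difference grew with the span of the gene over the whole table. Genes under 10 kb had a median difference of -1.18, those of 10 to 30 kb -0.53, of 30 to 100 kb 0.39, of 100 to 300 kb 1.30, and the 423 genes of 300 kb and over 1.63. Among these 423 genes 72.1% were at least 1 higher, against 2.84% of the genes under 10 kb. Spearman's rank correlation of the difference with span was 0.61 over 10470 genes, which are not independent replicates.

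Ranks within their own class of span are a description, since this contrast chose the members. Filip1l ranked 1 of 1302 genes of 100 to 300 kb and Adamts6 ranked 3. Il1rapl1, Magi2 and Pde7b ranked 1, 2 and 3 of the 423 longest, Arhgap6 ranked 12, and Ntng1 stood at 23.9% from the top. Kpna1 ranked 1 of 3200 genes of 30 to 100 kb. Ubtf ranked 2061 of 3258 genes of 10 to 30 kb.

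**Figure D2:**
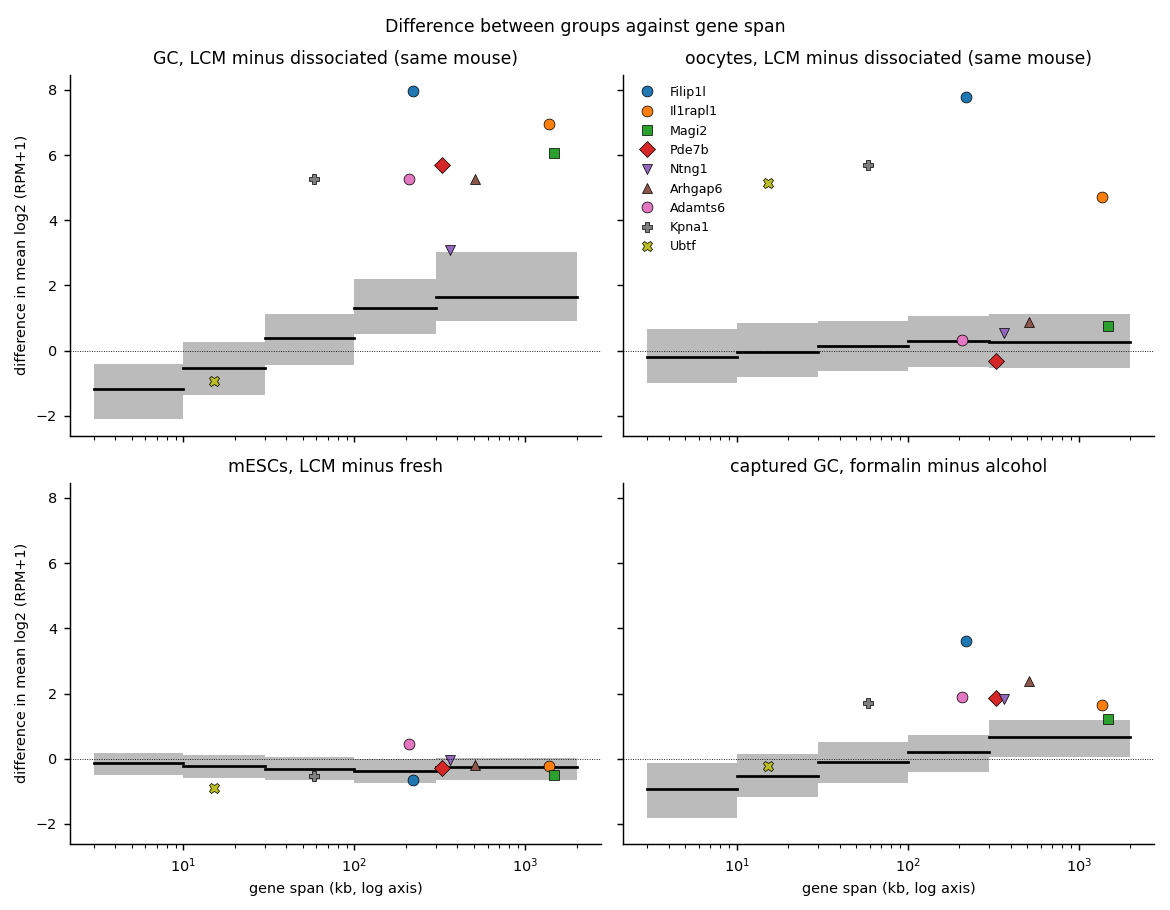
Difference in mean log2 (RPM+1) on the vertical axis against gene span in kb (log axis), for captured minus dissociated granulosa cells, oocytes and mESCs and for formalin minus alcohol granulosa cells. The black line is the median and the grey band the interquartile range of all genes in each class of span, and coloured markers are the 9 genes; the median runs from -1.18 to 1.63 in granulosa cells of the same mouse.

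In oocytes of the same mouse, 4 of the 9 genes were at least 1 higher in the 8 captured than in the 14 dissociated oocytes, where 21.5% of 12425 genes were higher and 19% lower. Only 6 of the 9 passed the level filter, a mean of at least 1 in either group. The 4 were Filip1l, Il1rapl1, Kpna1 and Ubtf, which also entered by this contrast. Their ranges in the 2 kinds of oocytes did not overlap. How many of all genes did so was not counted, so that nothing is read from it.

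Filip1l took 185, 195, 239, 325, 370.1, 590, 652 and 705 RPM in the 8 captured oocytes, and 0 to 9.40 RPM in the dissociated ones, of which 4 of 14 had reads. The lowest captured oocyte was thus far above the highest dissociated one, and the difference was 7.78. Kpna1 ranged from 20.8 to 178 RPM with a median of 66.4 in captured oocytes and had reads in 2 of 14 dissociated ones, at most 8.46 RPM, a difference of 5.68. Ubtf ranged from 21.01 to 213 RPM with a median of 144 and from 0 to 11.3 RPM with a median of 3.35, a difference of 5.15. These ranked 1, 2 and 3 of 12425 genes.

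Il1rapl1 ranged from 51.9 to 563 RPM (median 136) in captured oocytes and from 0 to 13.4 RPM (median 6.62) in dissociated ones, a difference of 4.72. Between Ubtf and Il1rapl1 in rank stood Mybbp1a (10.4 kb, 5.03), 9930021J03Rik (91.6 kb, 4.96) and Rimbp3 (5.38 kb, 4.84). Ubtf was therefore 5.15 higher in captured oocytes and 0.93 lower in captured granulosa cells of the same mouse.

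The other 5 genes did not reach 1 in oocytes, although 6 of the 9 did with a pseudocount of 0.1, with ratios of summed counts or at 1 thinned depth, and 5 did without library pool 10, 14 or 16. Magi2 ranged from 11.6 to 694 RPM (median 67.8) in captured and from 19.5 to 65.3 RPM (median 44.2) in dissociated oocytes, with a difference of 0.75. Pde7b had medians of 6.62 and 12.3 RPM and a difference of -0.33. Arhgap6 and Ntng1 had no reads in the 14 dissociated oocytes, where 3 reads over the set correspond to 0.700 RPM, and 21 and 5 reads in the captured ones, mostly from 1 oocyte for Arhgap6. Adamts6 had 3 reads in dissociated and 11 in captured oocytes. The 14 oocyte markers summed to a median of 33879 RPM (29895 to 37965) in dissociated and 26813 RPM (14665 to 29654) in captured oocytes, with none at 0. Granulosa markers were at 70.3 RPM (50.4 to 235) and 154 RPM (97.8 to 245), and stroma and muscle markers at 65.2 RPM (37.4 to 93.01) and 368 RPM (213 to 448), and the part of these in the result was not tested.

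Span was related to the difference only weakly in oocytes. The median difference was -0.19 for genes under 10 kb and 0.26 for the 491 of 300 kb and over, with a rank correlation of 0.13. In these 491 genes Il1rapl1 ranked 1, Magi2 184 and Pde7b 335.

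The mESCs were not used to choose the genes. Both dissociated and captured mESCs were amplified by DRaqL-SC3-seq, unlike the cells of the same mouse. Cell type and method therefore cannot be told apart between this contrast and those of the same mouse. None of the 9, of which 7 passed the level filter, was at least 1 higher in the 36 captured than in the 45 dissociated mESCs, where 0.793% of 10596 genes were higher and 9.17% lower, and no gene among the 9 was at least 1 lower. Their differences ran from -0.89 to 0.46, with a median of -0.27 beside -0.24 over all genes tested. Filip1l had medians of 1.69 RPM in dissociated (0 to 18.1) and 0.44 RPM in captured cells (0 to 11.3), and Il1rapl1 had 11.1 and 8.67 RPM. Both overlapped over almost their whole ranges. The direction rests on the labels of the mESC libraries, which other libraries of these cells call into doubt, and with the labels of the 3′ libraries exchanged the median would be 0.27.

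Kpna1 ranged from 1.45 to 192 RPM (median 61.2) in dissociated and from 0.52 to 293 RPM (median 39.4) in captured mESCs, with a difference of -0.52. Ubtf had medians of 25.7 and 17.2 RPM and the lowest difference, -0.89. Adamts6 was the one gene above 0, with medians of 6.64 and 10.0 RPM and a difference of 0.46. The median difference of genes of 300 kb and over was -0.27 and that of genes under 10 kb was -0.12, and none of the 329 longest was at least 1 higher. All 5 pluripotency markers were present, with a median sum of 1524 RPM in dissociated and 1499 RPM in captured cells.

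The level in captured cells also differed with the amplification, the fixation, the cell and the experiment. Over 18 sets of cells and samples, Filip1l was highest in formalin-fixed granulosa cells (9.78 ± 0.89, n = 24), followed by same-mouse captured granulosa cells (9.25), formalin-fixed oocytes (8.91) and same-mouse captured oocytes (8.50). DRaqL-SMART-Seq v4 granulosa cells came next at 6.64, a gap of 1.86 that exceeded both SDs. Captured granulosa cells by DRaqL-SC3-seq had 2.41 ± 2.16 (n = 57), near the 1.28 of dissociated cells, although they were captured too. For the 9 genes, 2 of the 153 gaps between sets next in order exceeded the larger SD, this one and that of Kpna1 above dissociated oocytes. Granulosa cells captured by DRaqL-Smart-seq2 outside the same-mouse experiment had 6.16 for Filip1l, against 9.25 by that method within it. Il1rapl1 had 5.18 against 8.27 and Kpna1 6.61 against 8.99. Ntng1 (5.95 against 4.71) and Ubtf (5.16 against 4.46) went the other way. The cause of these gaps was not tested.

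The top set was formalin-fixed granulosa cells for Filip1l, Pde7b, Ntng1, Arhgap6 and Adamts6, and same-mouse captured granulosa cells for Il1rapl1, Magi2 and Kpna1. Ubtf alone was highest in an oocyte set, the captured ones of the same mouse, at 6.84. Kpna1 was lowest in dissociated oocytes, at 0.35, and the next set was 2.28 above it. Captured granulosa cells by LCM-seq, Smart-seq2 and SMART-Seq v4 lay in between for most members.

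**Figure D3:**
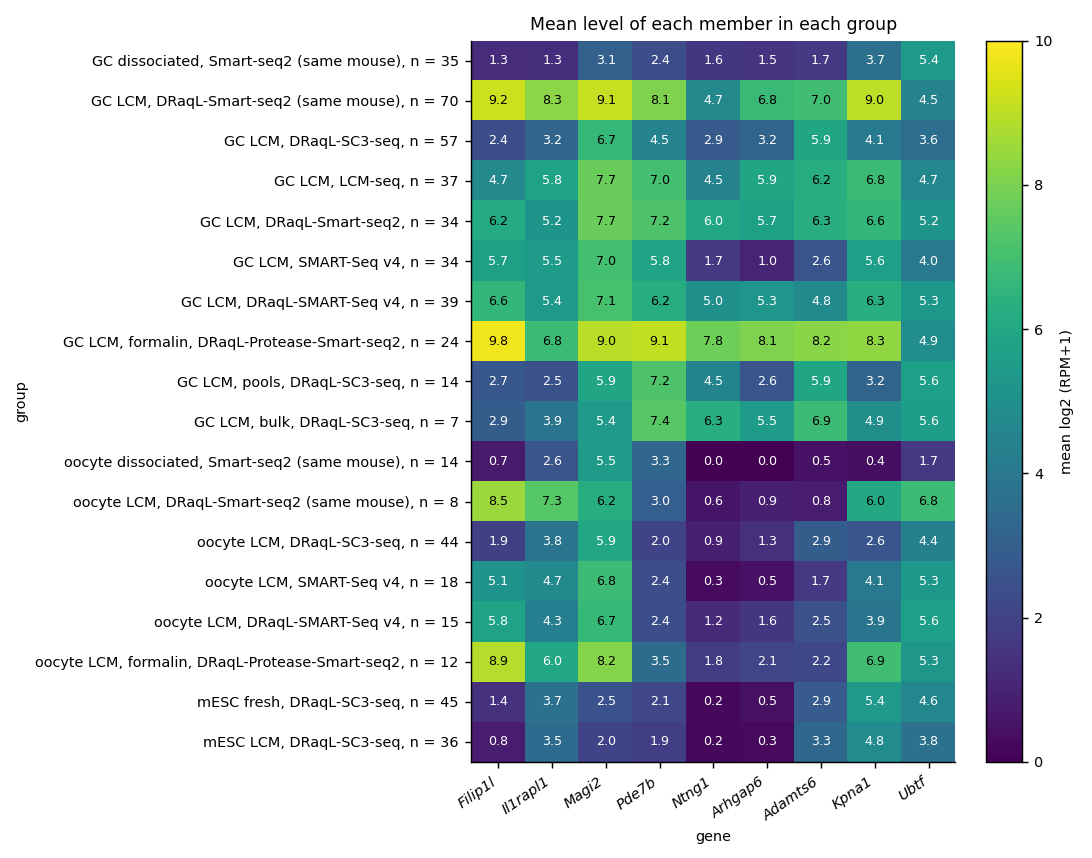
Mean log2 (RPM+1) of the 9 genes (columns) in 18 sets of libraries (rows), with brighter shades for higher means. Filip1l is highest in formalin-fixed granulosa cells, at 9.78, and the oocyte and mESC sets are dark for Ntng1 and Arhgap6.

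Several lysis and amplification methods were run on captured granulosa cells, and these contrasts did not choose the genes. DRaqL-Smart-seq2 (34 cells) minus LCM-seq (37 cells) gave 2 of 9 at least 1 higher, Ntng1 by 1.48 and Filip1l by 1.46, where 15% of 11901 genes were higher and 2.5% lower. Il1rapl1 was -0.61, and the other 6 lay between -0.21 and 0.48. With minus without DRaqL in SMART-Seq v4 (39 and 34 cells), Arhgap6 was 4.21, Ntng1 3.33, Adamts6 2.15 and Ubtf 1.31 higher, so that 4 of 9 reached 1 where 42.2% of 11330 genes did and 1.85% were lower, and the median of all genes was 0.83. Arhgap6 went from a median of 0 RPM, with reads in 10 of 34 cells, to 58.9 RPM, with reads in 34 of 39. Il1rapl1 and Magi2 were -0.09 and 0.08.

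In captured oocytes 1 of 9 genes, Arhgap6, was at least 1 higher with DRaqL (1.10), where 6.58% of 13724 genes were and 11.4% were lower. Magi2 had medians of 107.7 RPM without and 80.4 RPM with DRaqL and differed by -0.13.

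Formalin-fixed granulosa cells (24 cells, DRaqL-Protease-Smart-seq2) had higher levels than alcohol-fixed ones (34 cells, DRaqL-Smart-seq2) in 8 of 9 genes, where 9.4% of 12013 genes were at least 1 higher and 26.4% lower. Filip1l ranged from 332 to 3964 RPM (median 789) after formalin and from 0 to 294 RPM (median 69.6) after alcohol, a difference of 3.62 that ranked 5. The lowest formalin cell thus lay above the highest alcohol cell. The share of all genes without such overlap was not counted, so that nothing is read from this. Arhgap6 differed by 2.40, Adamts6 by 1.88, Pde7b by 1.87, Ntng1 by 1.83, Kpna1 by 1.71, Il1rapl1 by 1.64 and Magi2 by 1.23. Ubtf differed by -0.24, with medians of 33.4 and 45.8 RPM.

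Formalin and protease digestion came together and cannot be told apart. The difference rose with span here too, from a median of -0.93 under 10 kb to 0.65 at 300 kb and over, with a rank correlation of 0.38, and 33.2% of the longest genes were at least 1 higher. The members' median was 1.83 beside -0.30 over all genes tested. 6 of the 13 mitochondrial mRNAs were at least 1 higher after formalin, opposite to the same-mouse contrast, where 8 were lower.

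Most of these genes took a larger share of the reads in captured granulosa cells than in captured oocytes, which is no measure of RNA per cell. In the same mouse, 6 of 9 were at least 1 higher in granulosa cells, where 11.7% of 12491 genes were higher and 63.3% lower. Adamts6 differed by 6.15, Arhgap6 by 5.90, Pde7b by 5.10, Ntng1 by 4.15, Kpna1 by 2.96 and Magi2 by 2.89. Filip1l (0.75) and Il1rapl1 (0.92) were nearer, and Ubtf was -2.39. Among the dissociated cells of that mouse, 5 of 9 were higher, where 16.3% of genes were, and 2 were lower, where 61% of genes were: Ubtf was 3.70 higher and Magi2 was -2.42.

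In formalin-fixed sections the order of the cell types was similar. 5 of 9 were at least 1 higher in granulosa cells than in oocytes, where 8.63% of 13580 genes were and 53.1% were lower, led by Adamts6 (6.04), Ntng1 (6.00), Arhgap6 (5.98) and Pde7b (5.53). By DRaqL-SC3-seq also 5 of 9 were higher, where 5.14% of 13157 genes were and 71.4% were lower, with Adamts6 at 2.96 and Pde7b at 2.48. Ubtf was below the oocyte level in each of the 3 captured contrasts, at -0.38 after formalin and -0.76 by DRaqL-SC3-seq, as was Il1rapl1 in the last, at -0.59.

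Position was also compared in single granulosa cells, as neighboring minus non-neighboring. By DRaqL-SC3-seq (31 neighboring and 26 non-neighboring cells), 4 of 9 were at least 1 lower, Ntng1 by -2.75, Pde7b by -2.34, Magi2 by -1.80 and Ubtf by -1.13, where 14.1% of 10460 genes were lower and 5.33% higher. Pde7b and Ntng1 are in the list of position genes the study made from these cells, so that they are not independent evidence here. In the captured cells of the same mouse, 2 of 9 were lower, Pde7b by -2.12 and Magi2 by -1.58, where 12% of 10302 genes were and 8.31% were higher. In dissociated cells 5 of 9 were lower, where 46.9% of 10275 genes were and 4.79% were higher, so that nothing is read from that count. The median over all genes tested was itself -0.92 in dissociated cells, beside -1.19 for the members. Filip1l and Il1rapl1 differed by at most 0.20 in either direction in each of these 3 comparisons.

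Formalin-fixed cells gave a mixed picture, with 2 of 9 at least 1 higher in neighboring cells, where 21.8% of 11848 genes were, and 3 lower, where 12.7% were. Pde7b was -1.44, Il1rapl1 -1.31 and Ntng1 -1.20, and Ubtf was 1.69 and Magi2 1.41.

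Pools of 10 captured granulosa cells allowed a test of position, with 7 neighboring and 7 non-neighboring pools of 3811945 to 8259281 reads. The labels name no animal, so p-values cover the spread between pools. In the test across all genes by edgeR's quasi-likelihood test with Benjamini-Hochberg adjustment, 44 of 9704 genes were called at an adjusted p under 0.05, that is 0.453%, and none of the 9. 402 genes and 0 of the 9 had an unadjusted p under 0.05, and DESeq2 also called 0 of the 9. The test recovered 3% of genes simulated with a log2 change of 2 and 35% of those with 4, so that it could miss such sizes. In pools and bulk samples, fewer cells of a type and less RNA per cell cannot be told apart.

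Ntng1 took 0.17, 3.57, 4.74, 18.5, 32.5, 38.99 and 71.2 RPM in the 7 neighboring pools, in order of size. In the non-neighboring pools it took 0.20 RPM in one and 38.6 to 126 RPM in the other 6, so that most of these stood above most neighboring pools. Its log2 fold change was -1.63 ± 1.08 (SE, adjusted p = 0.998 by edgeR). Filip1l ranged from 0.13 to 32.2 RPM and had a log2 fold change of 1.04 ± 1.03, Kpna1 from 0 to 104.1 RPM with 1.33 ± 1.46, and Pde7b from 2.46 to 521 RPM with -0.43 ± 0.76, all with an adjusted p of 0.998. For all 9 genes the neighboring and non-neighboring pools overlapped.

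Bulk granulosa samples (7) were compared with the 14 pools in 1 fit. edgeR called 12 of 11917 genes, that is 0.101%, and none of the 9, while 743 genes and 3 of the 9 had an unadjusted p under 0.05. DESeq2 called none of the 5 members to which it gave an adjusted p, and gave none to Filip1l, Il1rapl1, Arhgap6 and Kpna1. Il1rapl1 took 8.29 to 110.6 RPM in bulk (median 8.79) and 0.51 to 14.3 RPM in pools (median 4.30), with a log2 fold change of 2.24 ± 0.75 (SE, adjusted p = 0.401 by edgeR). Arhgap6 took 2.36 to 424 RPM in bulk and 0 to 140 RPM in pools, with 2.63 ± 1.03 (adjusted p = 0.552), and Ntng1 0.74 to 277 and 0.17 to 126 RPM, with 1.92 ± 0.79 (adjusted p = 0.601). The highest bulk value of Il1rapl1 and of Arhgap6 came from bulk sample 2. Without the samples numbered 2, the log2 fold change was 1.02 ± 0.76 for Il1rapl1, 1.37 ± 1.13 for Arhgap6, 1.60 ± 0.76 for Ntng1 and -0.11 ± 1.01 for Filip1l. Bulk samples overlapped the 14 pools for all 9 genes. The other 6 had log2 fold changes between -0.70 and 1.07.

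**Figure D4:**
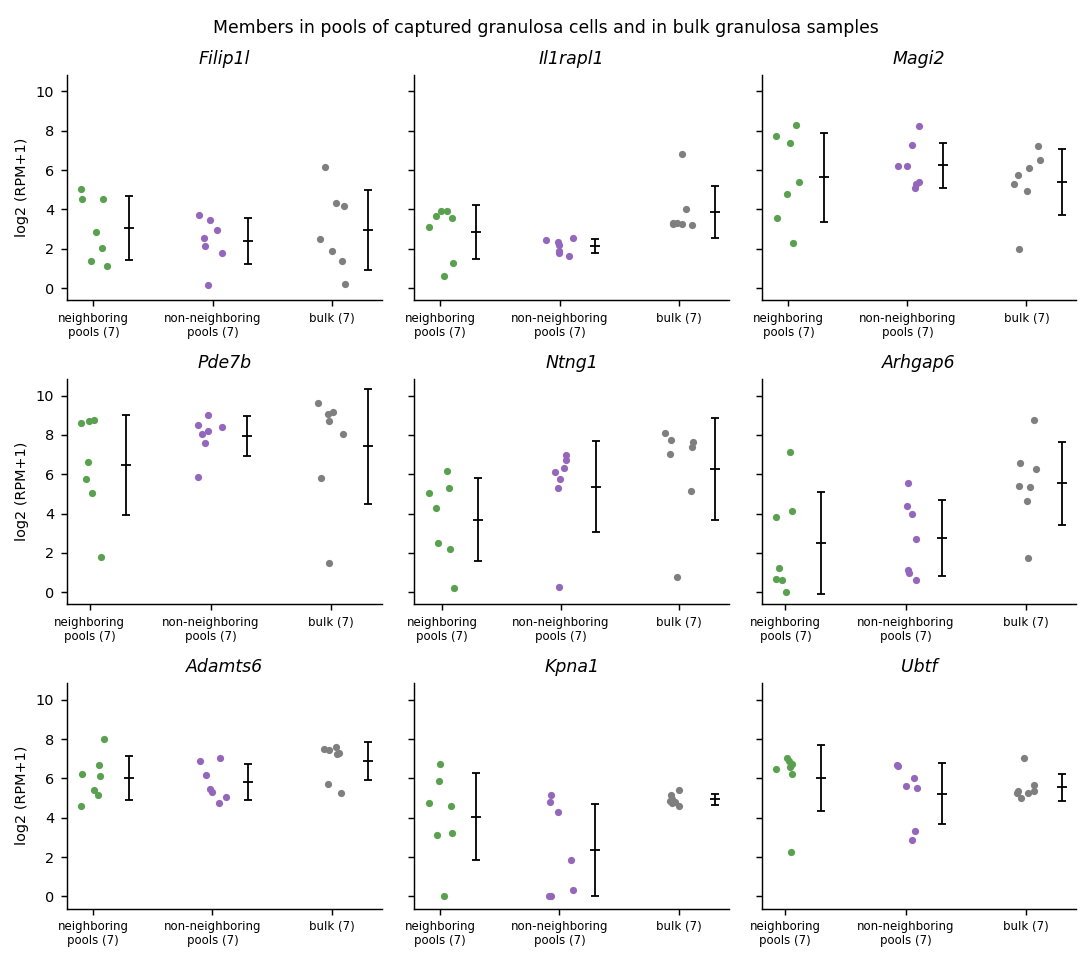
Levels of the 9 genes, log2 (RPM+1) on the vertical axis, in 7 neighboring pools, 7 non-neighboring pools and 7 bulk samples of captured granulosa cells. Points are samples and bars the mean ± SD, and bulk Il1rapl1 starts at 8.29 RPM, inside the range of the neighboring pools.

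Oocytes of growing follicles were also compared by stage. By DRaqL-SC3-seq, with 30 oocytes of secondary to early antral and 14 of primary follicles, 3 of 9 were at least 1 lower at the later stage, where 14.9% of 13686 genes were, and 1 was higher, where 32% were. Adamts6 was -1.75, Kpna1 -1.46 and Filip1l -1.12, and Ubtf was 1.42. In formalin-fixed oocytes (7 and 5), 2 of 9 were higher, Arhgap6 by 2.13 and Pde7b by 1.84, where 27% of 14103 genes were. Filip1l was -0.94 there, and 1 of its 5 primary oocytes stood at 11.43 on the log2 scale against 8.65 to 9.11 in the other 4.

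Serial sections of the same oocytes, by DRaqL-SC3-seq with 4232302 to 17506401 reads, gave a view at high depth. Filip1l ranged from 0.13 to 5.20 RPM over 16 sections of 8 oocytes and Ntng1 from 0.19 to 4.24 RPM, with reads in every section. Magi2 took 13.9 to 142 RPM and Ubtf 15.2 to 96.9 RPM. All 9 genes had reads in all 16 sections at this depth.

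Libraries with Y-shaped adapters were counted per exon and per exon-exon junction, for 5 mESCs labelled fresh, 5 labelled LCM and 5 oocytes of secondary to early antral follicles. These labels of mESCs are doubtful, since for all 10 the most similar 3′ library carried the other label (rank correlation 0.856 to 0.882), and they are used as labelled. Genes with at least 20 exon reads numbered 9957 in the libraries labelled fresh and 10537 in those labelled LCM, while the 3′ libraries had medians of 10644 genes in dissociated and 9845.5 in captured cells. Kpna1 had 786 exon reads in the fresh and 610 in the LCM libraries, with reads in all 10, and every one lay in its last exon. Ubtf had 928 and 902, with 98.3% and 98.0% in the last exon. The median share in the last exon was 89.8% over 9622 genes and 81.1% over 10165, with an upper quartile of 100% in both.

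Most long members had few exon reads there. Il1rapl1, Pde7b, Ntng1 and Adamts6 had 0 in the 10 mESC libraries, Arhgap6 had 1, and Magi2 had 136, all from 1 library. Filip1l had 44 reads from 1 fresh library and 131 from 2 LCM libraries. In the oocytes Ubtf had 88, 365, 402, 244 and 166 exon reads, Magi2 4, 49, 21, 2 and 33, and Kpna1 2, 0, 15, 3 and 0. Ntng1 and Adamts6 had 0. In the 3′ libraries of mESCs, which include reads within 10 kb downstream, mean log2 levels of Il1rapl1 were 3.73 in dissociated and 3.52 in captured cells. Those of Adamts6 were 2.87 and 3.33, of Pde7b 2.14 and 1.86 and of Ntng1 0.23 and 0.21. Where these reads lie was not tested.

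Junction reads mark RNA whose introns were removed, but most member reads lay inside last exons, where few reads can cross a junction, and that was not allowed for. Exon reads were those of 1 transcript per gene, the one with most reads, and junction reads those of the whole gene. Their ratio is thus no share of exon reads. In mESCs labelled fresh and LCM it was 143 and 146 per 100 for genes of 300 kb and over. The 9 genes had 0 junction reads on 1758 exon reads in the mESCs labelled fresh, which allows up to 0.210 per 100 by the 95% Poisson interval. They had 6 on 1780 in those labelled LCM, 0.337 per 100 (0.124 to 0.734). The other protein-coding genes, with a smaller share of reads in last exons, had 17.9 and 18.7 per 100. The 6 reads were all Ubtf, from 2 libraries, and joined exons 20 and 21 of the transcript Ubtf-210 across an intron of 89 bases (chr11:102306766-102306856, minus strand, GRCm38), shown with exon 21 in capitals.
Ubtf exon 20 to 21: gaggatggggatgagAATGATGATGACGAC

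In the oocytes the 9 genes had 79 junction reads on 1405 exon reads, 5.62 per 100 (4.45 to 7.01), against 12.7 in other genes. Ubtf held 75 of them, at 4, 10, 24, 26 and 11 in the 5 oocytes over 7 junctions. Il1rapl1 held 4, from 1 oocyte with 3 exon reads. Magi2 and Kpna1 had exon reads and no junction read. Ubtf was thus the one gene with junction reads in every oocyte.

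Some members share their ground with other genes. Cmss1 lies across Filip1l on the opposite strand, so that counting without strand would not tell their reads apart, and the strand setting is not given in the sources used here. Cmss1 was also higher in captured granulosa cells of the same mouse, at a mean of 10.05 against 7.73 (2.32), and in captured oocytes, at 8.86 against 6.56 (2.30). In mESCs it was 3.85 in both. LCM-seq granulosa cells had the highest Cmss1 (11.05), with Filip1l at 4.70. How far reads of Cmss1 enter the counts of Filip1l was not tested. Between formalin- and alcohol-fixed granulosa cells Cmss1 differed by -0.01 and Filip1l by 3.62.

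**Figure D5:**
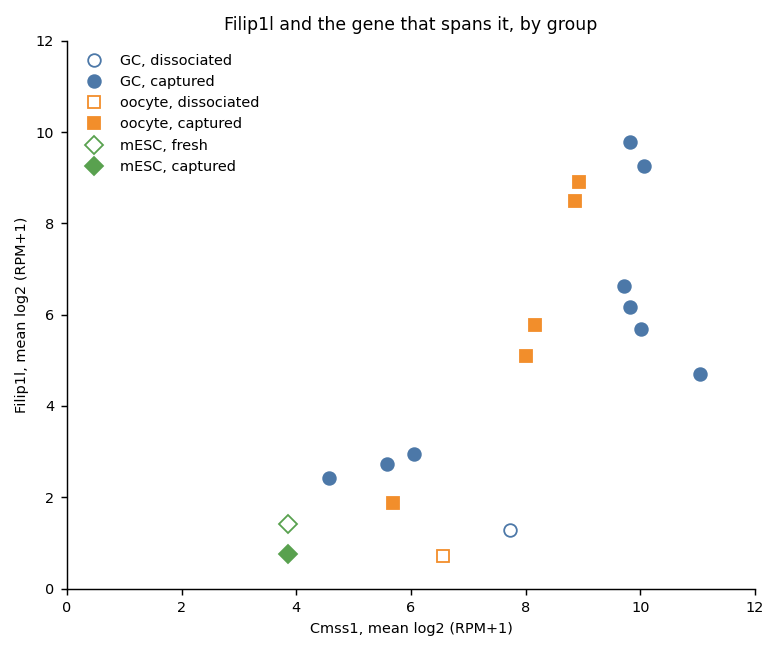
Mean log2 (RPM+1) of Filip1l (vertical axis) against that of Cmss1 (horizontal axis), with 1 point per set of libraries. Formalin-fixed and same-mouse captured granulosa cells stand highest for Filip1l, at 9.78 and 9.25, and LCM-seq cells lie to the right of them at 11.05 for Cmss1.

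Hccs lies on the opposite strand, partly inside Arhgap6 and partly past its 3′ end. In captured granulosa cells of the same mouse it differed by -1.79, and Arhgap6 by 5.26. Fam162a, downstream of Kpna1 on the opposite strand, was -1.37 there and -1.33 in oocytes, where Kpna1 was 5.28 and 5.68 higher. Whether these genes share reads with the members was not tested. Gm14776, a processed pseudogene inside Il1rapl1 on the same strand, was counted in the larger tables only. It had reads in 34 of 34 DRaqL-Smart-seq2 granulosa cells (25.0 RPM summed), in 33 of 37 by LCM-seq (30.0) and in 23 of 24 after formalin (39.7).

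Of the relatives listed by role, those of Magi2 were also higher in captured granulosa cells of the same mouse. Magi1 (608 kb) was 4.09 and Magi3 (207 kb) 3.42 higher, 2 of 2, where 22.6% of all genes were at least 1 higher and 27.6% lower. Of the 5 listed phosphodiesterase relatives that passed the filter, 2 were at least 1 higher and 1, Pde4d (1504 kb), was -1.11. Of 9 ADAMTS relatives, 4 were higher, Adamts10 by 3.11 and Adamts19 by 2.71, and Adamts3 was -1.13. Of the other lists, 2 of 2 Arhgap6 relatives, 2 of 2 Ntng1 relatives and 1 of 3 Il1rapl1 relatives were higher and none was lower, and the 1 listed relative of Filip1l did not pass the filter.

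Of the 6 importin relatives, Kpna4 was 2.12 and Kpnb1 1.14 higher and Kpna2 was -1.24. Of 11 partners of Ubtf in RNA polymerase I transcription, 1 was higher and 3 were lower, Polr1d by -1.86. In oocytes Magi3 differed by 1.63 and Magi1 by 1.23, Kpna2 by -1.71, and Polr1a by 1.82, where 21.5% of all genes were at least 1 higher and 19% lower. In mESCs 1 of 6 importin relatives and 1 of 11 partners of Ubtf were lower and none was higher, where 9.17% of all genes were lower.

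The genes whose profile most resembled the mean of the members, over 33 groups of libraries and 11765 candidates, were Sox5 (Pearson's r 0.89), Cblb (0.88), Rad51b (0.88), Adgrv1 (0.87) and Fgf13 (0.87). They span 177 to 954 kb. Sox5 had a mean of 4.03 in dissociated and 9.69 in captured granulosa cells of the same mouse, and of 9.58 after formalin. Single members had an r with the mean of the other 8 of 0.65 for Adamts6 to 0.86 for Arhgap6, and Ubtf had 0.22. The groups share libraries' methods, and r is a description.

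Malat1, a noncoding RNA kept in the nucleus, was counted in the larger tables. Its mean in captured granulosa cells was 10.12 by SMART-Seq v4 and 13.30 with DRaqL, 12.18 by DRaqL-Smart-seq2, 11.21 by LCM-seq and 11.94 after formalin. Malat1 was thus higher with DRaqL in SMART-Seq v4 granulosa cells, where 42.2% of protein-coding genes were at least 1 higher. Of the members, 4 reached 1 there, Arhgap6, Ntng1, Adamts6 and Ubtf. Filip1l differed by 0.95, Il1rapl1 by -0.09 and Magi2 by 0.08. The other listed nuclear RNAs did not all move alike. Xist had 8.01 without and 7.79 with DRaqL, Kcnq1ot1 3.79 and 7.80, and Airn 3.45 and 5.43. Neat1, Meg3 and Snhg14 had means below 4 in both. In captured oocytes Malat1 had 7.11 without and 10.14 with DRaqL, where 1 member and 6.58% of protein-coding genes reached 1. Xist had 3.66 and 2.60 in these oocytes, Kcnq1ot1 1.13 and 1.73, and Airn 2.95 and 2.93. The same-mouse tables were limited to protein-coding genes, so that no such value stands beside the largest differences.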

How the data were processed

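Per the labels and the study's methods, the authors trimmed 3′ reads with fastp 0.20.0 and cutadapt 1.16, mapped them with HISAT2 2.1.0 to GRCm38, and counted them per gene with HTSeq 0.10.0, including reads within 10 kb downstream of 3′ ends. The deposited values are raw counts; exon and junction counts were made by the authors with featureCounts 2.0.1. Whether counting used strand is not given in the sources used here.

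Counts were scaled to RPM over 22060 protein-coding genes in 562 libraries and compared as log2 (RPM+1). Genes entered a comparison with a mean of at least 1 in either group, and a difference of at least 1 counted as higher or lower. Intervals are exact Poisson at 95% and, like the limit of 3 reads for a count of 0, cover counting error only. Totals ran from 12748 to 17506401 reads, and low totals limit detection.

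Groups came from the labels. Only the 7 neighboring and 7 non-neighboring pools and the 7 bulk samples were tested, with edgeR 4.0.16 (R 4.3.3) by its quasi-likelihood test with TMM scaling and Benjamini-Hochberg adjustment over all genes. No label says that pools came from separate animals, so p-values measure only the spread between these samples. DESeq2 1.42.0 was an alternative, and the test was tried on simulated data with known changes. Spans, transcripts and sequences came from the GENCODE vM21 annotation and transcripts of GRCm38. Python 3.11.15, numpy 2.4.6, pandas 2.3.3 and scipy 1.17.1 were used.

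The 9 genes, the lists of relatives by role, nuclear RNAs and markers, and the tests were chosen with earlier results of these data known. Named are all 9 genes, listed genes with a mean of at least 4 in a group compared, and the 5 genes most similar in profile by Pearson's r; Jarid2, Atxn1, Maml3, Mybbp1a, 9930021J03Rik, Rimbp3 and the genes overlapping members were named after their values were seen.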

Additional observations from a re-analysis of the deposited data

Results flagged for a closer look

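In groups of 4 to 10 samples, 81 tests by Dixon's criterion of the gap between the farthest sample and its nearest neighbor picked 12 values, and chance picks about 1 in 20. Values are log2 (RPM+1). In captured oocytes of the same mouse, Arhgap6 was at 4.139 in oocyte 3, above the others, and Ubtf at 4.46 in oocyte 7, below them. In primary-follicle oocytes by DRaqL-SMART-Seq v4, Il1rapl1 stood apart at 6.288 in oocyte 4 and Pde7b at 4.533 in oocyte 6. Among formalin-fixed oocytes, Filip1l was at 11.43 in primary oocyte 4, Ntng1 at 5.841 in primary oocyte 3 and Kpna1 at 9.914 in secondary to early antral oocyte 3. Bulk sample 2 was far above the other bulk samples for Il1rapl1 (6.802) and Ubtf (7.018), and bulk sample 4 was far below them for Ntng1 (0.7971). Neighboring pool 3 was low for Ubtf (2.277), and non-neighboring pool 2 for Ntng1 (0.2629).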

How the results depend on the processing

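Over 14 results and 136 alternative values, 129 were classed as kept, 6 as moved and 1 as reversed. Kept meant a shift below the SD between cells for medians, within a set ratio for counts and within the Poisson interval for junction reads. That rule is wide. In granulosa cells of the same mouse the median of the longest genes was 1.632, with an SD of 1.44. It was 0.8412 with a pseudocount of 10 and 2.613 with 0.1, both classed as kept. So was 6 in place of 4 members higher in captured oocytes. The reversed one was the median difference in mESCs, which by construction became 0.2721 in place of -0.2721 with the labels of the 3′ libraries exchanged, an alternative chosen after seeing the data. With a pseudocount of 0.1, the median difference of the members was 7.315 in place of 5.281 in granulosa cells of the same mouse and 1.986 in place of 0.8892 in oocytes, where ratios of summed counts gave 2.212; a smaller pseudocount widens differences from cells at 0. Thinning every library to 1 depth gave 1 member at least 1 higher in captured mESCs, Adamts6, in place of 0, and the cause was not tested. Exchanging the doubtful labels of the mESC libraries gave 0.3371 in place of 0 junction reads per 100 exon reads in those labelled fresh and 0 in place of 0.3371 in those labelled LCM. In pools and in bulk, 0 of the members were called under each alternative run, the replicate block included; Arhgap6 was not tested between pools without number 5, and DESeq2 gave 4 members no adjusted p in bulk. Over all genes, the 44 calls between pools (0.453% of genes tested) became 1.20% of them by DESeq2, 3 with the replicate block and 5 to 34 when 1 replicate number was left out (27, 6, 5, 10 and 22 without number 3, 4, 5, 6 and 7); the 12 calls between bulk and pools became 67 by DESeq2, 463 without the filter, 84 by upper-quartile scaling, 0 with the block and 0 to 40 when 1 number was left out (40 without 4, 9 without 2, at most 5 without any other). Same-numbered neighboring and non-neighboring pools correlated at 0.00255 to 0.194, and 3 of 7 fitted best with their own number, so the numbers were not taken to pair samples. Depth limits the dissociated granulosa cells most.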
